A study of Mus musculus with 141 samples.

Results

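Lung and kidney transcriptomes were compared within the same animals, using 94 RNA-seq libraries, 47 of each organ, of a series that holds 47 libraries from each of 3 organs. Each of 47 Collaborative Cross (CC) strains, recombinant inbred mice descended from 8 founder strains, contributed 1 male mouse, and its lung library was set against its own kidney library. All libraries labelled lung or kidney were used and none was chosen by its measured values. The mice were adults of 8 to 12 weeks on an NTP 2000 wafer diet that had spent 6 hours of each weekday over a period of weeks in chambers supplied with clear air. Whole organs were excised, frozen and processed as total RNA with ribosomal depletion. With 1 mouse per strain, the spread between mice combines strain, animal and library. Because whole organs were sequenced, fewer cells of a type and less RNA per cell cannot be told apart in any of the values that follow.

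Both organs are built from epithelium laid on a dense capillary bed. In the lung, flat alveolar type 1 cells form the gas exchange surface, cuboidal alveolar type 2 cells secrete surfactant, and the conducting airways carry secretory and ciliated cells. In the kidney, podocytes cover the filtering capillaries, and the proximal tubule, thick ascending limb, distal convoluted tubule and collecting duct recover solutes and water from the filtrate through segment-specific transporters. The lung also carries elastic fibres and is permanently exposed to inhaled material, with resident macrophages and lymphocytes in its walls and airspaces.

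The labels were checked first against Scgb1a1 and Lamp3, which mark airway secretory and alveolar type 2 cells, and Kap and Tmem27, which mark the proximal tubule. Levels are CPM, counts scaled to a common library size after trimmed mean of M values (TMM) normalization. Scgb1a1, the club cell secretoglobin, had a lowest, median and highest level of 3700.3, 7665 and 13778 CPM in lung and 0.322, 6.90 and 60.9 CPM in kidney. Lamp3, a lamellar body membrane protein, lay at 204, 369 and 552 CPM in lung and 0, 0.331 and 4.18 CPM in kidney. Each was higher in lung in 47 of 47 mice, with no overlap between the organs and log2 fold changes (lung over kidney, ± standard error, n = 47 pairs, as throughout) of 9.94 ± 0.20 and 9.90 ± 0.24. Kap, the androgen-regulated kidney protein of the proximal tubule, lay at 0.502, 12.4 and 116 CPM in lung and at 7901, 20179.8 and 34701 CPM in kidney, a log2 fold change of -10.40 ± 0.21. Tmem27, a partner of amino acid transporters, lay at 0, 0.133 and 1.69 CPM in lung and 168, 318 and 439 CPM in kidney, a log2 fold change of -10.31 ± 0.23. Every library therefore carried the markers of the organ on its label.

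**Figure D1:**
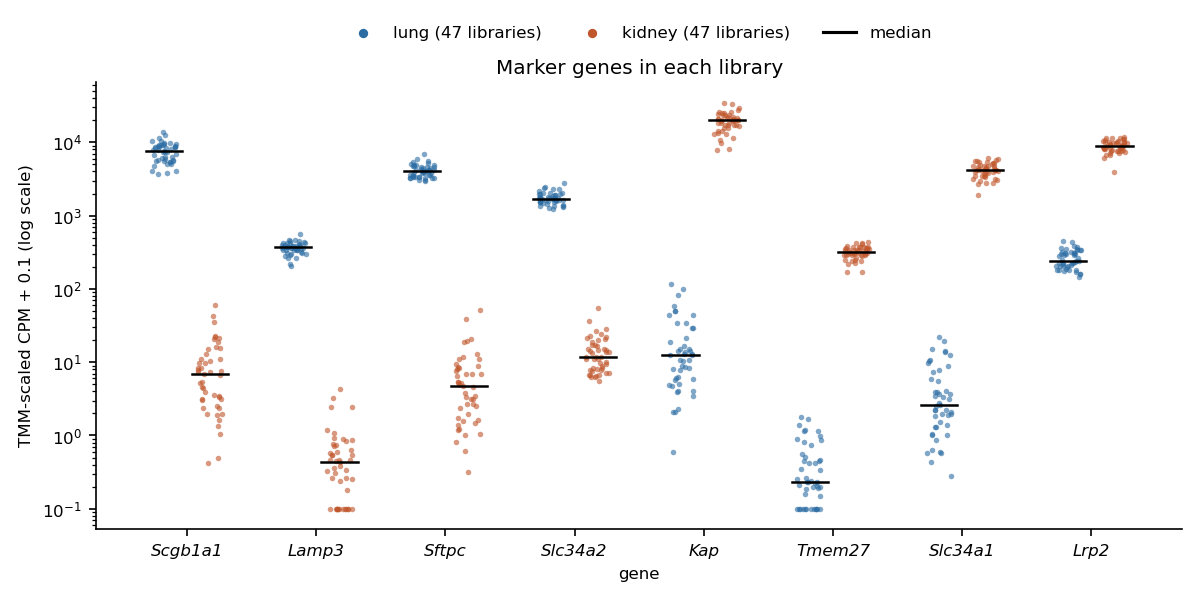
TMM-scaled CPM plus 0.1 (log scale) of 8 marker genes in each of the 47 lung and 47 kidney libraries, 1 point per library, with a black bar at the median. The organs do not overlap for any of them, with Scgb1a1 at 3700.3 to 13778 CPM in lung against at most 60.9 CPM in kidney and Kap at 7901 to 34701 CPM in kidney against at most 116 CPM in lung.

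A gene was called different when the limma-voom fit, with mouse as a block, gave a Benjamini-Hochberg adjusted p (q) of at most 0.1 and the log2 fold change was 1 or more in either direction. Of 12472 genes tested, 5958 were called (47.8%), 3290 higher in lung (26.4%) and 2668 higher in kidney (21.4%). The lowest lung library lay above the highest kidney library for 1247 genes (10%), and the reverse held for 1498 genes (12.0%). The lung was above the kidney in all 47 mice for 2471 genes (19.8%) and below it in all for 2417 (19.4%), and q alone passed for 11440 genes (91.7%). The median log2 fold change of all tested genes was 0.03, and the lists described in this report are read against these shares. Scaling by total counts moved the median of all genes up by 0.46 on the log2 scale, and 69.4% of the calls were then higher in lung, against 55.2% with TMM. Every called gene named in this report had q of 4.9e-06 or less in limma-voom, so q values are not repeated for each.

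Depth and coverage limited some genes. Libraries held 2829104 to 17585682 counts in lung (median 9338124) and 3046695 to 15028553 in kidney (median 8245850). The ribosomal RNA precursor Rn45s and the gene Lars2 together took 1.02% to 90.5% of the counts in lung (median 24.1%) and 0.206% to 83.0% in kidney (median 32.3%), exceeding 50% in 15 lung and 17 kidney libraries, with the lowest remainder in the lung of CC015 (987292 counts). A count of 3 corresponded to a median of 0.321 CPM in lung and 0.364 CPM in kidney. The kidney of CC020 (low tubule and high leukocyte sums), both organs of CC016 and the lung of CC040 (high interferon-induced sums) stood apart from the other libraries. Without CC020 the calls were 3318 in lung and 2695 in kidney, without CC016 and CC040 they were 3309 and 2689, and without CC015 they were 3477 and 2528. A gene that passed the low-count filter only through the organ where it is high had to differ, so counts and medians over the tested members of a list describe those members and not the whole list. Genes with more than 1 listed transcript carried few counts in these files (median 3.36 CPM in the higher organ, against 23.1 CPM for genes with 1). Of 617 distinct genes in 40 lists, the 152 that could not be tested include 109 of this kind. These counts leave out the 15 gene families named by symbol, whose tested members are given with each family. Members of families with near-identical copies, such as the P450, organic anion transporter and MHC genes, rest on uniquely aligned reads and their split between copies is uncertain.

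Surfactant and alveolar type 2 genes were among the largest lung differences. Of the 14 genes of this list, all tested, 11 were higher in lung, every one without overlap between the organs, and the median log2 fold change was 6.06. Sftpc, surfactant protein C, lay at 2994, 4040.0 and 6952 CPM (lowest, median, highest) in lung and 0.215, 4.71 and 50.6 CPM in kidney (log2 fold change 9.64 ± 0.20). Sftpa1 (9.72 ± 0.22), Sftpd (9.33 ± 0.22) and Sftpb (9.19 ± 0.19), the remaining surfactant proteins, and the chemokine Cxcl15 (9.78 ± 0.20) differed by similar amounts, the lung being above the kidney in all 47 mice for each. Slc34a2, the alveolar phosphate transporter, was measurable in both organs at 1226, 1704 and 2755 CPM in lung and 5.48, 11.6 and 54.3 CPM in kidney (7.05 ± 0.11). Napsa, an aspartic protease of type 2 cells that the proximal tubule also makes, went the other way, at 75.8, 133 and 206 CPM in lung and 678, 1580.0 and 2579.7 CPM in kidney (-3.56 ± 0.08), again with no overlap. Abca3, the lamellar body lipid transporter, and the protease Ctsh were below the fold threshold (-0.74 ± 0.11 and -0.29 ± 0.07).

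The promoters of 2 type 2 cell genes are shown because they hold the letters of sites for NKX2-1 and FOXA factors, whose genes Nkx2-1 and Foxa1 were higher in lung. Each line gives 250 bases before and 50 bases after the RefSeq transcription start on the GRCm38.p6 build, read 5' to 3' on the gene's strand. The capitals mark the letters CTCAAG, a core of NKX2-1 sites, in Sftpb (chr6:72304360-72304659, plus strand; 100 and 15 bases before the start) and TGTTTAC, a forkhead (FOXA) core, in Lamp3 (chr16:19706316-19706615, minus strand; 92 bases before the start).
Sftpb: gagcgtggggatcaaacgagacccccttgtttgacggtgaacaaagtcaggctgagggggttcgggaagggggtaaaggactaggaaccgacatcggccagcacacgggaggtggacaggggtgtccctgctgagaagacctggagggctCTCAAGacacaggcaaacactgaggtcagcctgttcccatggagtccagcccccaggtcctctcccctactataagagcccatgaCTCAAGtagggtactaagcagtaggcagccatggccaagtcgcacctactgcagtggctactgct
Lamp3: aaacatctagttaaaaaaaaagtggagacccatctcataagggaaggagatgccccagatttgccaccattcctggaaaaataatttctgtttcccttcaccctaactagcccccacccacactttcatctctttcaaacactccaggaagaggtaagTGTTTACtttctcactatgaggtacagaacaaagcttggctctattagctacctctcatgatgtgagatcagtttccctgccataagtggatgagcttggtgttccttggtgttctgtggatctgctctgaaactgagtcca
Searched on both strands, CTCAAG occurred in 5224 of the 32851 RefSeq promoters of this length (15.9%) and TGTTTAC in 1199 (3.65%). A CTCAAG match is thus common and a TGTTTAC match less so.

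Alveolar type 1 genes were higher in lung for all 13 tested of 14 (median log2 fold change 5.30), 10 of them without overlap. Aqp5, the apical water channel of these cells, lay at 49.1, 138 and 236 CPM in lung and 0, 0.285 and 1.82 CPM in kidney (8.62 ± 0.19), and Rtkn2, rhotekin 2, was separated as far (8.63 ± 0.17). Emp2, a tetraspan membrane protein, differed by 5.94 ± 0.06. Clic5 and Krt7 were expressed in both organs and differed less, Clic5 at 884, 1159 and 1488 CPM in lung and 123, 181 and 268 CPM in kidney (2.64 ± 0.05) and Krt7 by 1.61 ± 0.06, yet neither overlapped between the organs. Ager and Pdpn, commonly used type 1 markers, had medians of only 1.87 and 4.30 CPM in lung and 0 in at least 1 lung library, and Cldn18 was listed at 0 in all 94 libraries.

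Airway genes were separated as widely. In the secretory list 9 of 10 tested genes were higher in lung (median 7.69), among them Cyp2f2, the club cell P450 (8.26 ± 0.14), Cbr2, a carbonyl reductase (8.03 ± 0.17), and the mucin Muc5b, at 11.9, 151 and 439 CPM in lung and 0, 0.385 and 2.36 CPM in kidney (8.25 ± 0.24). Bpifa1, a secreted antimicrobial protein of the upper airway, varied widely between lungs, from 1.32 to 2312 CPM with a median of 131 CPM, and still exceeded the kidney in all 47 mice (9.23 ± 0.40). Gp2, a membrane glycoprotein, was the exception, higher in kidney by 1.66 ± 0.30 on the log2 scale with overlapping organs. Of 18 ciliated cell genes 16 were tested and were higher in lung (median 5.76). Hydin, of the ciliary central pair, lay at 38.5, 78.9 and 150.2 CPM in lung and 0, 0.246 and 1.39 CPM in kidney (8.13 ± 0.15), and Foxj1, the ciliogenesis factor, differed by 6.09 ± 0.20. Dnah5, an outer arm dynein, reached 114 CPM in 1 kidney (median 9.18 CPM) and overlapped the lung range of 70.6 to 312 CPM (3.80 ± 0.20).

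Proximal tubule genes gave the mirror image. Of 22 identity and endocytosis genes, all tested, 20 were higher in kidney and 18 did not overlap (median -6.80). Lrp2 and Cubn, the megalin and cubilin receptors that recover filtered protein, differed in their lung level. Lrp2 lay at 145, 237 and 448 CPM in lung and 3944, 8860.4 and 11669.8 CPM in kidney (-5.12 ± 0.06), so the lung carried it in every library, whereas Cubn had a lung median of 3.40 CPM against 1701 CPM in kidney (-8.86 ± 0.11). Tmem174, a proximal tubule membrane protein, had the largest log2 fold change of the list (-10.50 ± 0.22), and Mep1a, Keg1, Miox and Cyp2j5, enzymes of the brush border or of tubule metabolism, lay between -10.09 and -9.73. Mme, the brush border peptidase neprilysin, did not pass (0.03 ± 0.09, higher in lung in 24 of 47 mice), and Enpep, glutamyl aminopeptidase, was below the fold threshold (-0.77 ± 0.08). The kidney of CC020 was the lowest of the 47 for the summed level of this list, at 17305 CPM against a median of 38445 CPM.

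Of 17 tested genes of the thick ascending limb and distal convoluted tubule, 16 were higher in kidney (median -7.03) and 15 did not overlap. Egf, epidermal growth factor, lay at 0.127, 0.893 and 4.21 CPM in lung and 67.7, 492 and 777 CPM in kidney (-8.83 ± 0.14). Calb1, the calcium buffer calbindin (-9.33 ± 0.21), Bsnd, the chloride channel subunit barttin (-8.75 ± 0.20), Slc12a1, the furosemide-sensitive cotransporter (-8.73 ± 0.20), and Umod, uromodulin (-8.25 ± 0.21), were higher in kidney in every mouse. Trpm6, a magnesium channel, was the exception, at 56.1, 84.1 and 241 CPM in lung and 15.1, 34.5 and 65.4 CPM in kidney (1.37 ± 0.07), higher in lung in 47 of 47 mice although the ranges overlapped.

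In the collecting duct list 14 of 16 tested genes were higher in kidney (median -4.58). Rhcg, an ammonia transporter (-9.05 ± 0.18), Foxi1, the intercalated cell factor (-7.96 ± 0.17), and Aqp2, the vasopressin-regulated water channel (-7.30 ± 0.18), did not overlap between the organs. Scnn1g, a subunit of the epithelial sodium channel, was higher in lung without overlap, at 72.6, 106 and 169 CPM against 21.4, 31.0 and 53.4 CPM (1.80 ± 0.06), and Atp6v0d2 did not pass the fold threshold (0.19 ± 0.07).

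The podocyte list was called in both directions at shares near those of all genes. Of 13 tested genes 3 were higher in kidney and 3 in lung, 23.1% each, against 21.4% and 26.4% of all genes. Those in kidney included the slit diaphragm gene Nphs1 (-7.32 ± 0.18) and the scaffold Magi2 (-2.39 ± 0.14). Those in lung were Plce1 (2.23 ± 0.06), Nes (1.91 ± 0.07) and Pla2r1 (1.18 ± 0.05), and the list median was -0.70. Podxl, which podocytes share with vascular endothelium, lay at 214, 342 and 477 CPM in lung and 113, 183 and 276 CPM in kidney (0.88 ± 0.05), and Wt1 at medians of 2.78 and 5.64 CPM (-0.85 ± 0.12), both under the fold threshold. Total-count scaling raised the lung calls in this list to 5.

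Of 21 genes that most epithelia share 19 were tested. In this list 5 were higher in lung and 2 in kidney, shares of 26.3% and 10.5% against 26.4% and 21.4% of all genes, and the median was 0.44. The summed level, which the most abundant members set, was higher in lung in 3 of 47 mice (medians of 844 CPM in lung and 972 CPM in kidney). Krt19 (4.53 ± 0.19), Krt18 (1.85 ± 0.10) and Cgn (1.89 ± 0.16) were higher in lung, whereas the channel-activating protease Prss8 was higher in kidney, at 34.9, 46.7 and 71.6 CPM in lung and 153, 285 and 395 CPM in kidney (-2.56 ± 0.05). Epcam and Cdh1, the epithelial adhesion molecules, were under the fold threshold in opposite directions (-0.81 ± 0.07 and 0.65 ± 0.06). The protease inhibitor Spint1 (-1.19 ± 0.05) lost its call with total counts, and 9 genes of the list were then higher in lung.

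Developmental transcription factors differed in the direction of the organ they help to form. Of 15 lung factors 13 were tested and were higher in lung (median 4.28). Foxf1, of lung mesenchyme, lay at 60.1, 116 and 169.6 CPM in lung and 0, 0.298 and 1.89 CPM in kidney (8.24 ± 0.18), followed by Tbx5 (7.98 ± 0.19), and the epithelial factors Foxa1 (5.30 ± 0.18) and Nkx2-1 (5.07 ± 0.15, lung median 2.61 CPM). Of 18 tested kidney factors 16 were higher in kidney (median -6.39). Pax8 lay at 0, 0.0802 and 1.60 CPM in lung and 60.2, 86.0 and 132 CPM in kidney (-9.34 ± 0.19), and Hnf4a (-7.89 ± 0.18) and Emx2 (-7.77 ± 0.13) were likewise separated in every mouse. Irx1 was higher in lung (1.14 ± 0.11) and Gata3 did not differ beyond its error (0.05 ± 0.11).

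**Figure D2:**
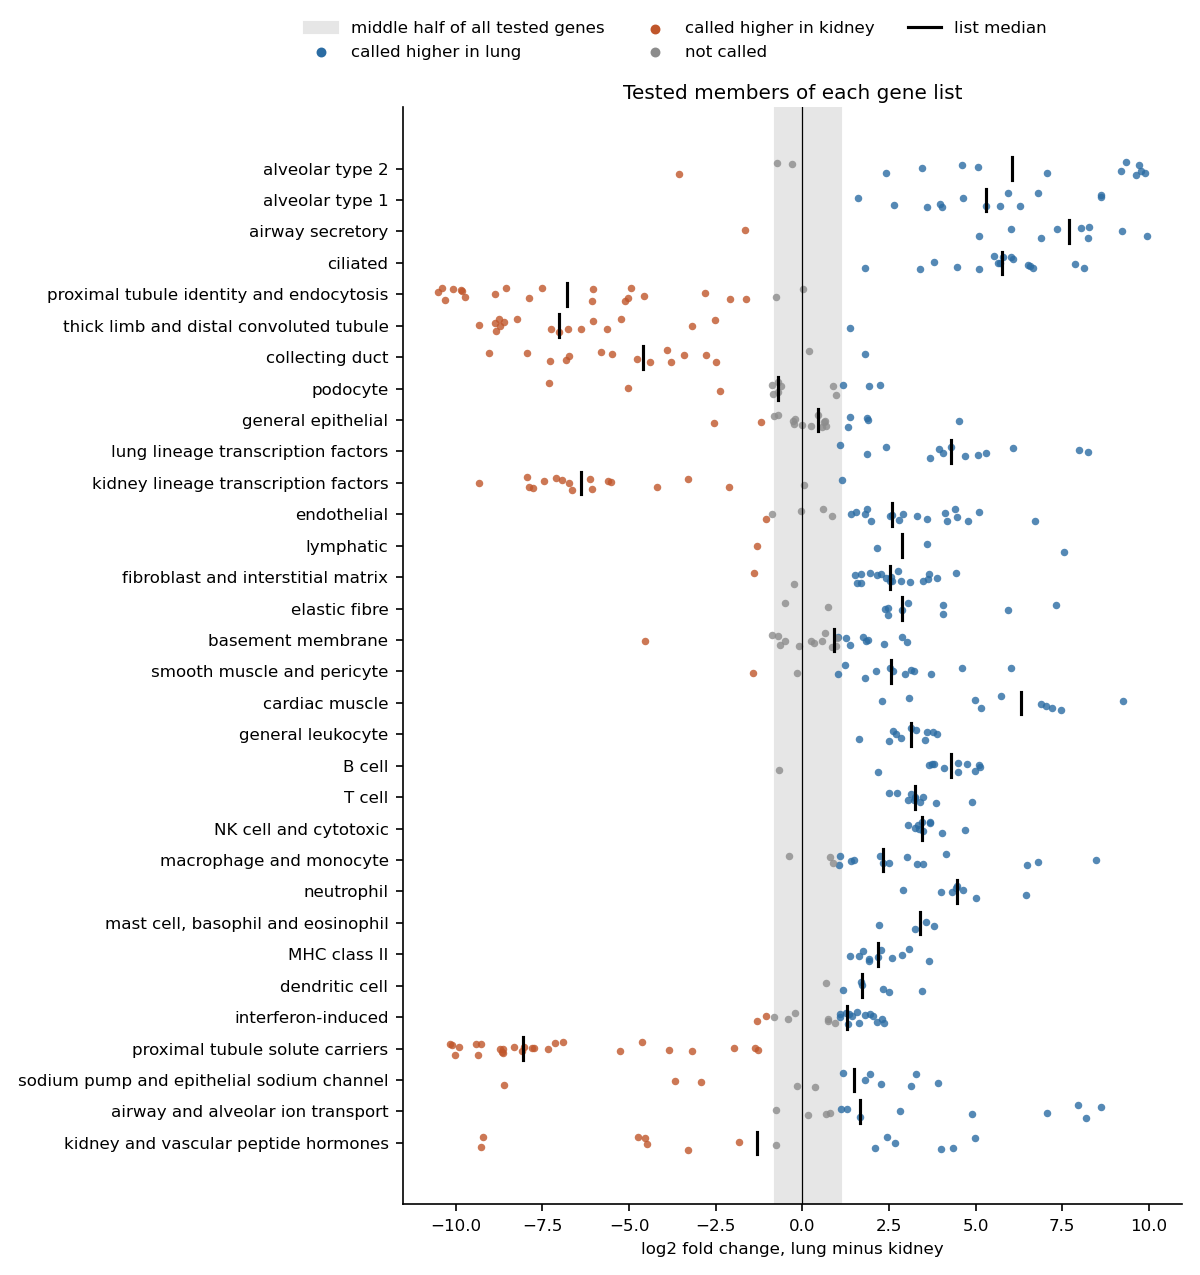
Log2 fold changes (lung minus kidney) of the tested members of 32 gene lists, 1 point per gene, coloured by call, with a black bar at each list median and a grey band over the middle 50% of all tested genes. Lung epithelial, cardiac and immune lists lie to the right and tubule lists to the left, with medians from 7.69 for airway secretory genes to -8.06 for proximal tubule solute carriers, whereas podocyte and general epithelial lists lie across 0.

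Solute transport was where the kidney exceeded the lung most completely. All 26 tested of 29 proximal tubule solute carriers were higher in kidney, 23 without overlap, with a median of -8.06. Their summed level was 7102 to 17489.6 CPM in kidney (median 13096) and 38.0 to 198 CPM in lung (median 75.3), the lowest kidney again being that of CC020. Slc34a1, the sodium-phosphate cotransporter, lay at 0.179, 2.51 and 21.8 CPM in lung and 1883, 4206 and 6191 CPM in kidney (-10.18 ± 0.22). The organic anion and cation transporters Slc22a6 (-10.11 ± 0.22) and Slc22a2 (-10.03 ± 0.17), the sulfate transporter Slc13a1 (-9.90 ± 0.21) and the urate transporter Slc22a12 (-9.41 ± 0.19) were of the same order. Slc5a2, the main glucose cotransporter of the early proximal tubule, lay at 0, 0.543 and 3.16 CPM in lung and 119, 272 and 556 CPM in kidney (-8.74 ± 0.17), whereas Slc5a1, its high-affinity relative, differed by -3.84 ± 0.10. Slc7a7 and Slc15a2, transporters of cationic amino acids and of peptides, differed least, by -1.36 ± 0.15 and -1.28 ± 0.09, and overlapped between the organs.

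The promoter of Slc3a1 is shown because it holds the letters of a site for HNF4, whose gene Hnf4a was higher in kidney. It is a RefSeq promoter as above (chr17:85028097-85028396, plus strand), with capitals marking CAAAGTCCA, 39 bases before the start.
Slc3a1: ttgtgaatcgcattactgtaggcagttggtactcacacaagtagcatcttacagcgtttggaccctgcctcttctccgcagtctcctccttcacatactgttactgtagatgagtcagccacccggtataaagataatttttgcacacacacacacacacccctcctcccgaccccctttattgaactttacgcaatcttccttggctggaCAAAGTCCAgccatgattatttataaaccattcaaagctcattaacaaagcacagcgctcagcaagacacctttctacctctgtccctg
Slc3a1, a subunit of the cystine transporter, lay at 0.536, 1.64 and 4.27 CPM in lung and 306, 676 and 1465 CPM in kidney (-8.63 ± 0.12). On both strands CAAAGTCCA was found in 156 of 32851 promoters (0.475%). Among the 46 genes of the proximal tubule lists that were higher in kidney, 39 had a RefSeq promoter, and 2 of these held the letters (Slc3a1 and Pdzk1). Here a gene counted if any of its promoters matched, a measure unlike the share over single promoters. On this count CTCAAG was found in 7 of the 39 kidney genes (17.9%) and TGTTTAC in 3 (7.69%), so neither was limited to lung genes.

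Solute carriers as a family followed the kidney. Of 250 tested of 347, 123 were higher in kidney (49.2%, against 21.4% of all genes) and 48 in lung (19.2%, against 26.4%), with a median of -0.93. No overlap was seen for 87 kidney and 18 lung genes. Slc7a13, an amino acid transporter of the proximal tubule (-10.16 ± 0.24), followed Slc34a1 on the kidney side. On the lung side stood Slc26a9, an airway chloride channel, at 15.8, 33.4 and 53.3 CPM in lung and 0, 0 and 0.409 CPM in kidney (8.18 ± 0.17), and Slc6a14, an amino acid importer, at 38.4, 85.3 and 165 CPM in lung and 0, 0.268 and 2.32 CPM in kidney (7.95 ± 0.19).

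**Figure D3:**
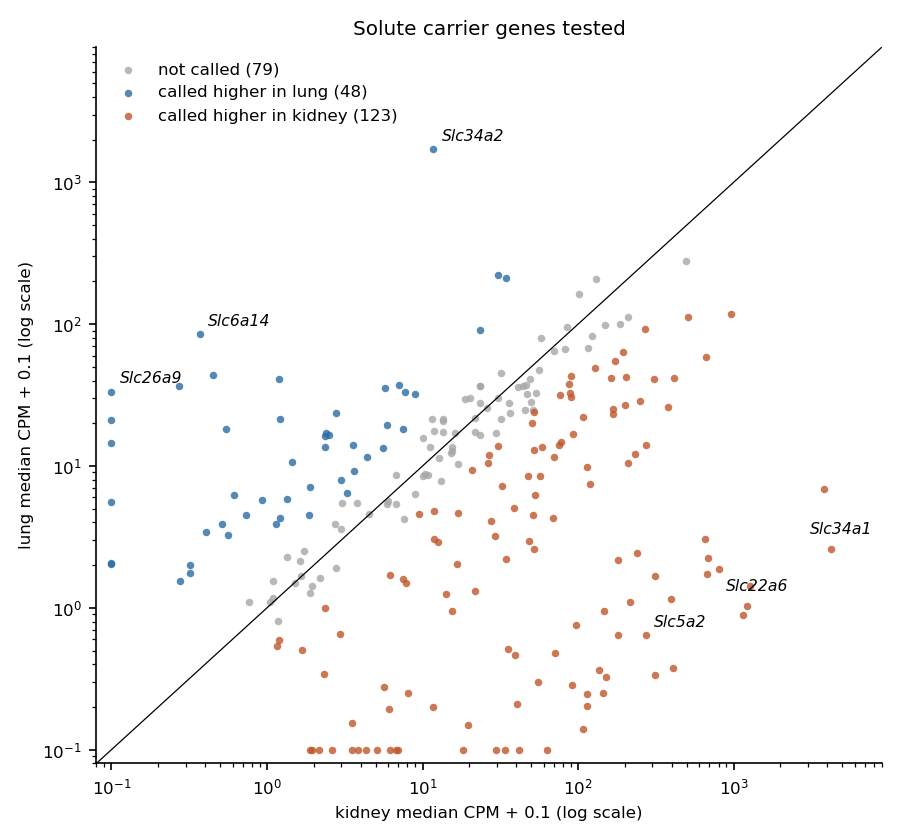
Median CPM plus 0.1 in lung against kidney (both log scale) for the 250 tested solute carrier genes, 1 point per gene, with the line of equality. The 123 genes called higher in kidney lie under the line, with Slc34a1 at 4206 CPM in kidney and 2.51 CPM in lung, and the 48 called higher in lung above it, with Slc34a2 at 1704 CPM in lung and 11.6 CPM in kidney.

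Sodium transport genes differed in both directions. Atp1b1, the beta subunit of the sodium pump in transporting epithelia, lay at 117, 176 and 281 CPM in lung and 815, 1271 and 1786 CPM in kidney (-2.92 ± 0.05), without overlap. Fxyd2, the renal regulatory subunit of the pump, differed by -8.61 ± 0.18. Fxyd3, a regulatory protein of the same family, was higher in lung (3.14 ± 0.21). So were Scnn1a (1.96 ± 0.08), at 100.3, 161 and 377 CPM in lung and 20.8, 43.5 and 83.2 CPM in kidney, and Scnn1g, subunits of the sodium channel through which both alveolus and collecting duct absorb sodium. In all, 7 of 12 tested genes of this list were higher in lung and 3 in kidney. Of 13 tested genes of airway and alveolar ion transport, 9 were higher in lung and 0 in kidney (median 1.66), among them Cftr, the cystic fibrosis chloride channel, at 10.6, 23.8 and 73.7 CPM in lung and 2.72, 9.95 and 44.3 CPM in kidney (1.13 ± 0.11), with overlap.

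Other transport families leaned to the kidney in most cases. Of 7 tested aquaporins 5 were higher in kidney, led by Aqp2 and the intercalated cell channel Aqp6 (-7.29 ± 0.17), and 1, Aqp5, in lung. Aqp1, of proximal tubule and capillaries, was higher in kidney in 47 of 47 mice but under the fold threshold (-0.77 ± 0.06). Among 13 tested claudins, the tight junction proteins, 6 were higher in kidney and 4 in lung (46.2% and 30.8%, against 21.4% and 26.4% of all genes). Cldn2, the pore of the proximal tubule, lay at 0.241, 1.14 and 7.08 CPM in lung and 321, 482 and 594 CPM in kidney (-8.50 ± 0.13), and Cldn5, of endothelium, led in lung (4.78 ± 0.07). Carbonic anhydrases had 7 of 12 higher in kidney, led by Car12 (-6.13 ± 0.19), and 1 in lung, Car8 (3.19 ± 0.08), a member without catalytic activity. Car4, a capillary and tubule enzyme, did not differ beyond its error (-0.03 ± 0.11). Of 19 tested subunits of the V-type proton pump 14 were higher in kidney and 0 in lung (median -1.60), from the intercalated cell subunits Atp6v1g3 (-6.82 ± 0.18) and Atp6v0a4 (-5.81 ± 0.09) down.

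The ABC transporters were mixed, with 15 of 38 higher in lung and 11 in kidney (39.5% and 28.9%, against 26.4% and 21.4% of all genes). Abcc2, the apical organic anion pump, lay at 0, 1.26 and 9.61 CPM in lung and 189.7, 471 and 655 CPM in kidney (-8.24 ± 0.14), while Abcc3, of basolateral membranes, was higher in lung (3.69 ± 0.12). The organic anion transporting polypeptides had 5 of 10 higher in kidney, led by Slco1a6 (-9.82 ± 0.24), and 3 in lung, including Slco2a1, the prostaglandin transporter (4.17 ± 0.09). Inward rectifier potassium channels had 4 of 7 higher in kidney, led by Kcnj1 (-7.25 ± 0.14), the potassium secretory channel, and 1 in lung, Kcnj2 (1.36 ± 0.10).

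Hormone and vascular peptide genes were split, 7 higher in kidney and 6 in lung of 14 tested. On the kidney side were Kl, the klotho coreceptor for FGF23, at 0.237, 0.999 and 3.22 CPM in lung and 322, 772 and 1062 CPM in kidney (-9.28 ± 0.13), Cyp24a1, the vitamin D 24-hydroxylase (-9.21 ± 0.25), and Vdr, the vitamin D receptor (-4.75 ± 0.08). Ren1, renin, had a kidney median of only 1.25 CPM (-4.47 ± 0.21). On the lung side were the natriuretic peptide gene Nppa (4.97 ± 0.36), the endothelin receptor Ednra (4.34 ± 0.08), Edn1 (4.01 ± 0.12) and Ace, the angiotensin-converting enzyme of lung capillaries, at 2.79, 10.8 and 36.8 CPM in lung and 0.192, 1.60 and 5.01 CPM in kidney (2.67 ± 0.15).

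Endothelial genes were higher in lung. Of 23 tested of 29, 18 were called in lung and 1 in kidney, with a median of 2.60 and 12 without overlap, and their summed level was 3119 to 5521 CPM in lung (median 4387) and 421 to 727 CPM in kidney (median 598). Vwf, von Willebrand factor, lay at 329, 623 and 1494 CPM in lung and 3.15, 5.94 and 14.4 CPM in kidney (6.70 ± 0.10), Calcrl, the adrenomedullin receptor, differed by 5.10 ± 0.06, and Cdh5, vascular cadherin, lay at 351, 583 and 758 CPM against 22.5, 32.9 and 58.1 CPM (4.12 ± 0.06). The growth factor receptors Kdr (1.87 ± 0.04) and Flt1 (1.82 ± 0.04) were nearer and still did not overlap. Ehd3, of glomerular endothelium, was higher in kidney (-1.04 ± 0.06), a call that ended with DESeq2 size factors (-0.96) and with total counts (-0.60). Of 4 tested lymphatic genes Lyve1, at 60.7, 189.8 and 885 CPM in lung and 0.269, 1.09 and 4.65 CPM in kidney (7.56 ± 0.17), Flt4 and Pdpn were higher in lung. Prox1, the lymphatic factor that some tubule cells also express, was higher in kidney (-1.30 ± 0.13), though not with total counts (-0.80).

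Fibroblast and interstitial matrix genes were higher in lung for 19 of 21 tested (median 2.52), with only 4 free of overlap. Col1a2 lay at 160.4, 344 and 712 CPM in lung and 26.8, 51.5 and 290.1 CPM in kidney (2.60 ± 0.08), and Col6a2 (3.88 ± 0.09), Limch1 (3.65 ± 0.08) and Col13a1 (4.43 ± 0.19), markers of alveolar fibroblasts among them, differed more. Timp3, a matrix-bound protease inhibitor, was higher in kidney in all 47 mice (-1.40 ± 0.07), although with total counts its value of -0.95 did not pass. Elastic fibre genes were separated further, 9 of 11 higher in lung with 7 free of overlap (median 2.87). Eln, elastin, lay at 32.5, 79.1 and 168 CPM in lung and 2.48, 5.01 and 10.8 CPM in kidney (4.05 ± 0.09), and Mfap4 (7.33 ± 0.21) and Ltbp2 (5.93 ± 0.19), microfibril-associated proteins, led the list. Fbln5, which elastic fibre assembly requires, was under the fold threshold (-0.51 ± 0.05).

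Basement membrane genes were less divided, 9 of 22 higher in lung and 1 in kidney (median 0.91). The laminin chains showed it: Lama4, of vessels, lay at 129, 181 and 230.2 CPM in lung and 13.9, 21.2 and 41.3 CPM in kidney (3.02 ± 0.05), whereas Lama1 lay at 0.317, 2.01 and 9.55 CPM in lung and 37.5, 62.3 and 124 CPM in kidney (-4.54 ± 0.16). Col4a3 and Col4a4, the collagen IV chains common to the alveolar and glomerular membranes, were under the fold threshold toward kidney (-0.70 ± 0.07 and -0.87 ± 0.07), and total counts raised the lung calls of the list to 14. Among 33 tested collagens 18 were higher in lung and 4 in kidney, led by Col13a1 and Col23a1 (4.38 ± 0.09) in lung and Col19a1 (-4.84 ± 0.19) in kidney. Integrins had 14 of 22 in lung and 4 in kidney (63.6% and 18.2%, against 26.4% and 21.4% of all genes). Those in kidney included Itgb8, at 1.31, 3.41 and 11.1 CPM in lung and 111, 178 and 268 CPM in kidney (-5.61 ± 0.09).

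Contractile genes were higher in lung. Of 14 tested smooth muscle and pericyte genes 12 were called in lung (median 2.57), with Tagln at 61.8, 102 and 246 CPM in lung and 13.8, 24.0 and 67.3 CPM in kidney (2.12 ± 0.08), Acta2 at 2.62 ± 0.09 and Actg2 at 6.01 ± 0.19. Rgs5, a pericyte gene, was higher in kidney (-1.41 ± 0.14), or -0.93 and not called on log2(TPM + 1). Of 13 cardiac muscle genes 10 were tested and were higher in lung (median 6.31), Actc1 at 40.9, 112 and 337 CPM in lung and 0, 0.103 and 0.929 CPM in kidney (9.27 ± 0.20). Their summed level ran from 199.8 to 2731 CPM between lungs (median 802), so every lung library carried cardiac transcripts. Nppa of the peptide list is also a cardiac gene, and the part of cardiac transcripts in the smooth muscle and peptide results was not tested.

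Leukocyte genes were mostly higher in lung. Of 15 general leukocyte genes 11 were tested and all 11 were called (median 3.13), and without the low-count filter 12 of the 15 were called. Their summed level was 194 to 645 CPM in lung (median 367) and 13.9 to 174 CPM in kidney (median 30.8). Laptm5, a lysosomal protein of blood cells, lay at 23.0, 75.5 and 133 CPM in lung and 1.15, 4.72 and 41.6 CPM in kidney (3.53 ± 0.13), and Itgb2, the shared integrin chain, differed by 3.88 ± 0.12. The kidney of CC020 had the highest value, and the list median was 3.15 without that mouse.

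Lymphocyte genes were also higher in lung. Of 16 B cell genes 12 were tested and 11 called (median 4.29), or 14 of 16 without the filter, with Ms4a1, CD20, at 1.98, 15.2 and 39.6 CPM in lung and 0, 0.253 and 3.46 CPM in kidney (5.12 ± 0.19). Blnk, a B cell adaptor, did not pass (-0.67 ± 0.09). Of 21 T cell genes 11 were tested and were higher in lung (median 3.25), and without the filter 16 of the 21 were called (median 2.71). Of 14 NK and cytotoxic genes 10 were tested and were higher in lung (median 3.47), and without the filter 11 of the 14 were called. Cd2, a T cell adhesion molecule, differed by 4.90 ± 0.18 and Gzma, granzyme A, by 4.69 ± 0.13. The summed T cell level was 17.6 to 103 CPM in lung and 1.77 to 41.6 CPM in kidney, where the kidney of CC020 was the highest against a median of 4.61 CPM.

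Of 21 macrophage and monocyte genes 17 were tested, and 14 were higher in lung and 0 in kidney (median 2.32). Chil3, a chitinase-like protein of alveolar macrophages, lay at 1.08, 232 and 1937 CPM in lung and 0, 0.366 and 3.72 CPM in kidney (8.47 ± 0.38), and Marco, a scavenger receptor, at 6.81 ± 0.28. Lyz2, lysozyme, which type 2 cells also make, lay at 1085, 1907 and 3056 CPM in lung and 4.03, 19.0 and 157 CPM in kidney (6.49 ± 0.15). C1qa, a complement subunit gene, differed by 1.10 ± 0.12, and Csf1r at 0.81 ± 0.05 and Mertk at -0.38 ± 0.06 were under the fold threshold. Of 15 neutrophil genes 8 were tested and were higher in lung (median 4.45), and without the filter 12 of the 15 were called (median 3.10), including S100a8 (5.01 ± 0.14) and Ltf, lactoferrin, which airway glands also secrete (6.45 ± 0.33). Of 11 mast cell, basophil and eosinophil genes 4 were tested and were higher in lung, or 7 of 11 without the filter, but Hdc, histidine decarboxylase, reached 338 CPM in the kidney of CC012 against a kidney median of 6.68 CPM (2.22 ± 0.26).

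Antigen presentation genes were higher in lung with wide overlap. All 11 MHC class II pathway genes were called (median 2.18). H2-Ab1 lay at 61.9, 169.7 and 368 CPM in lung and 13.6, 43.2 and 954 CPM in kidney (1.75 ± 0.12) and Cd74, the invariant chain, at 22.3, 48.0 and 95.5 CPM in lung and 3.26, 8.25 and 235 CPM in kidney (2.26 ± 0.15). The lung had the higher summed level in 45 of 47 mice, and the kidney of CC016 had the highest of all libraries at 2863 CPM against a kidney median of 151 CPM. Interferon-induced genes had 14 of 22 higher in lung and 2 in kidney (median 1.29), with no gene free of overlap. Gbp2, a guanylate-binding protein, lay at 34.2, 54.2 and 701 CPM in lung and 4.55, 9.62 and 326 CPM in kidney (2.35 ± 0.09). Cxcl10, an interferon-induced chemokine (-1.30 ± 0.25), and Rsad2, the antiviral viperin (-1.05 ± 0.16, or -0.95 and not called with DESeq2 size factors), were higher in kidney.

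Chemokines had 11 of 17 higher in lung and 1 in kidney, led by Cxcl15 and Cxcl17 (5.52 ± 0.16), both products of airway or alveolar epithelium. Of 19 chemokine receptors 12 were tested and were higher in lung (median 2.84), including the neutrophil receptors Cxcr1 (4.61 ± 0.24) and Cxcr2 (4.42 ± 0.15). Toll-like receptors had 7 of 9 in lung, among them Tlr5, the flagellin receptor, at 2.14, 10.4 and 17.7 CPM in lung and 0, 0.225 and 1.34 CPM in kidney (4.77 ± 0.19). Tlr12 was higher in kidney (-2.18 ± 0.20).

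**Figure D4:**
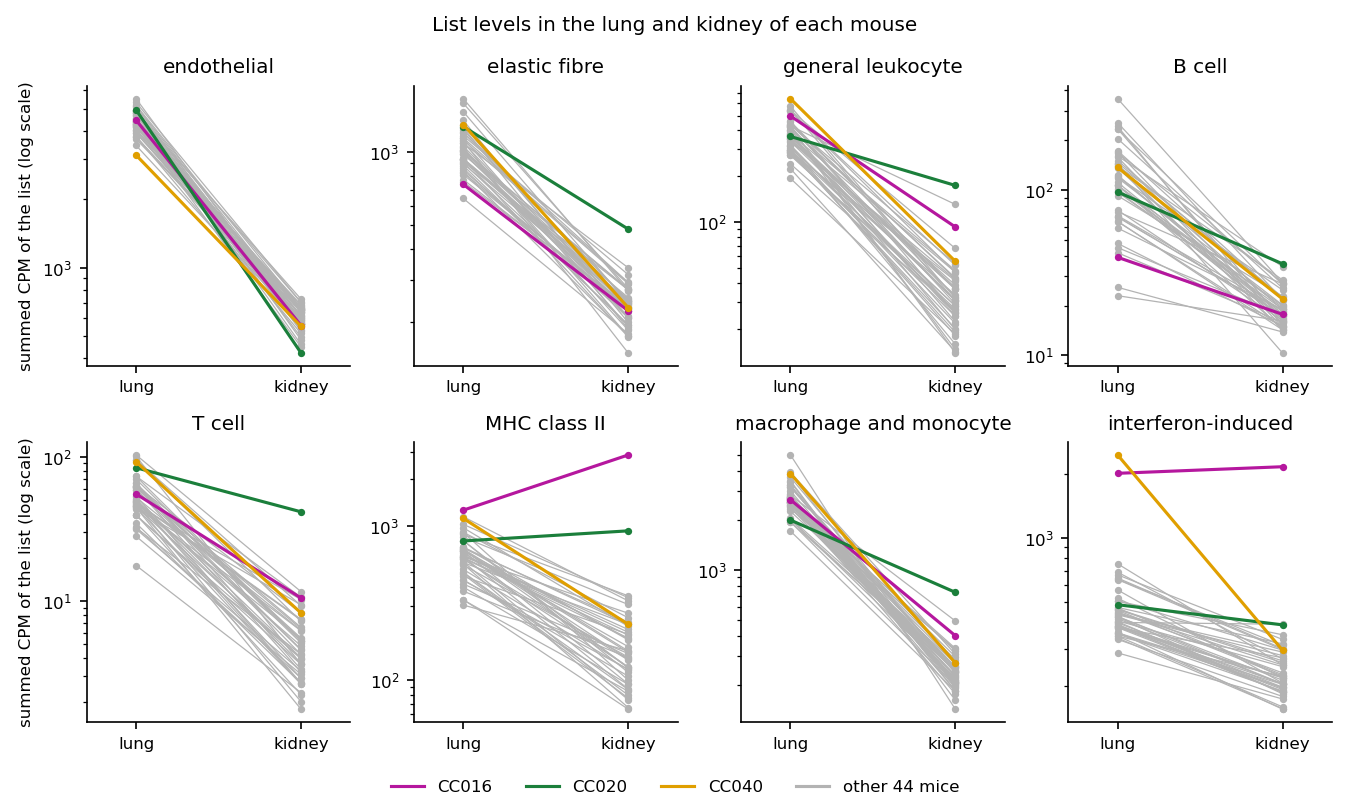
Summed CPM (log scale) of 8 stromal and immune gene lists in lung and kidney, with 1 line joining the organs of each of the 47 mice and CC016, CC020 and CC040 coloured. Endothelial, elastic fibre, leukocyte, B cell, T cell and macrophage sums are higher in lung in all 47 mice, MHC class II sums in 45 and interferon-induced sums in 46, the kidney of CC016 reaching 2863 CPM for MHC class II. The macrophage sum in lung (median 2683 CPM) includes Lyz2, at a median of 1907 CPM.

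Pairing by mouse allowed the lung level of a list to be set against the kidney level across the 47 mice, as log2 of the summed CPM, for 12 immune and stromal lists. Permutation tests (two-sided, 100000 permutations, adjusted over the 12 lists, threshold 0.05) gave the following. Interferon-induced genes had r = 0.70 (q = 0.00048 by permutation, Spearman's rho = 0.75, adjusted p = 6.0e-05), with the highest levels in the lung of CC040 (2455 CPM) and in both organs of CC016 (2011 CPM in lung, 2161 CPM in kidney). NK and cytotoxic genes had r = 0.64 (q = 0.00012 by permutation, rho = 0.58, adjusted p = 0.00020) and MHC class II genes r = 0.61 (q = 0.00012 by permutation, rho = 0.61, adjusted p = 6.0e-05). Without the 2 mice farthest from the median lung level r was 0.62, 0.53 and 0.59 for these lists, and without CC016, CC020 and CC040 it was 0.63, 0.61 and 0.57.

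T cell (r = 0.54, rho = 0.54, 0.49 without the farthest 2 mice) and general leukocyte genes (r = 0.47, rho = 0.53, 0.43 without them) also passed at q = 0.00048 and 0.0016 by permutation of r and at adjusted p = 0.00033 and 0.00038 for rho. B cell genes (r = 0.35, q = 0.033 by permutation, rho = 0.32, adjusted p = 0.051) and fibroblast genes (r = 0.33, q = 0.037, rho = 0.33, adjusted p = 0.044) fell to 0.29 and 0.25 without 2 mice. Endothelial genes had r = -0.0044 (rho = -0.00046, permutation q = 0.98), smooth muscle genes r = 0.088 (rho = 0.22, q = 0.60 and 0.21, and r = 0.32 without 2 mice), erythroid genes r = -0.19 (rho = -0.14, q = 0.22 and 0.37), macrophage genes r = -0.25 (rho = -0.14, q = 0.13 and 0.37) and neutrophil genes r = 0.24 (rho = 0.17, q = 0.13 and 0.34), none of which passed. A single abundant member made up much of some sums. In kidney Timp3 had a median of 2635 CPM (fibroblast sum 3388 CPM) and Slc4a1 38.8 CPM (erythroid sum 40.8 CPM). In lung Lyz2 had a median of 1907 CPM (macrophage sum 2683 CPM), and Ltf reached 632 CPM (highest neutrophil sum 663 CPM). These sums therefore need not follow the cell types named. With the members weighted equally, as a mean z-score, macrophage (r = 0.36) and neutrophil genes (r = 0.64) passed at q = 0.024 and 4.0e-05 by permutation. The share of counts in Rn45s and Lars2 divided the libraries. Within the 21 mice with at most 50% in both organs r was 0.77 for interferon-induced, 0.75 for NK, 0.63 for T cell, 0.45 for leukocyte and 0.39 for MHC class II genes, and within the other 26 mice it was 0.69, 0.58, 0.53, 0.50 and 0.68. For B cell genes r was 0.67 and 0.22 in these groups and for fibroblast genes 0.36 and 0.28. The leukocyte and MHC class II values in the first group missed the threshold (q = 0.099 and 0.17 by permutation). On the deposited TPM, which share each library's total with those 2 genes, r fell to 0.40 for interferon-induced and 0.33 for MHC class II genes (q = 0.061 and 0.088 by permutation), and with the 2 genes removed it was 0.69 and 0.57.

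**Figure D5:**
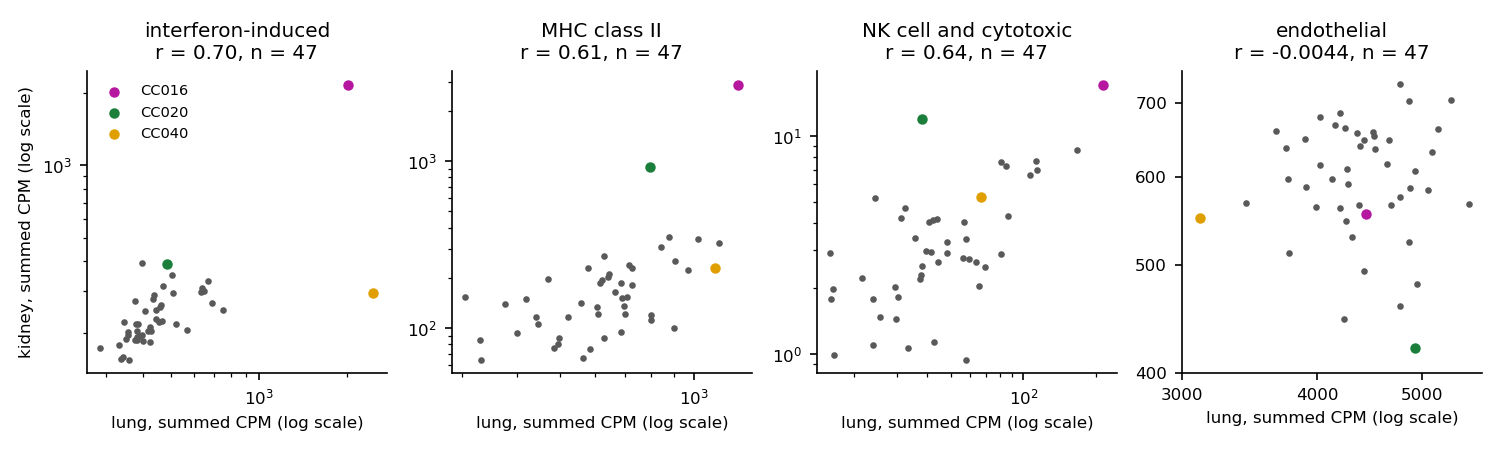
Summed CPM of 4 gene lists in kidney against lung (both log scale), 1 point per mouse (n = 47), with CC016, CC020 and CC040 coloured. Interferon-induced (r = 0.70), MHC class II (0.61) and NK cell (0.64) lists rise together between the organs, while endothelial genes (r = -0.0044) do not.

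Cytochromes P450 had 24 of 42 tested genes higher in kidney and 10 in lung (57.1% and 23.8%, against 21.4% and 26.4% of all genes). Cyp2j13 (-10.11 ± 0.20) and Cyp2j5 (-9.73 ± 0.18), of the arachidonate-oxidising subfamily, led in kidney and Cyp2f2 and Cyp2b10 (6.64 ± 0.27) in lung. Beyond the lists and families, the widest separations in lung without overlap were E030019B13Rik (9.69 ± 0.20), Fendrr, a noncoding RNA beside Foxf1 (8.68 ± 0.18), Myh7, a cardiac myosin heavy chain (8.49 ± 0.23), Lgi3 (8.43 ± 0.20) and Chil1, a chitinase-like protein (8.12 ± 0.29). In kidney they included Mep1b, the meprin beta subunit (-10.35 ± 0.24), Akr1c21, a hydroxysteroid dehydrogenase (-10.21 ± 0.24), Hao2, a hydroxyacid oxidase (-9.96 ± 0.32), and Cdhr2, a brush border protocadherin (-9.81 ± 0.25).

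Markers of neighbouring tissues varied widely between animals. Of 7 tested fat genes 3 were higher in kidney, Ucp1, Cidea and Fabp4, of which Fabp4 lost its call with total counts (-0.83) and on log2(TPM + 1) (-0.73) and Cidea on the latter (-0.77). The summed level ran from 24.7 to 1851 CPM between kidneys. The 5 tested of 10 skeletal muscle genes and the 4 tested of 7 squamous and thyroid genes were higher in lung, the summed muscle level running from 4.53 to 1233 CPM and the squamous and thyroid level from 1.24 to 3107 CPM (median 12.1). Without the 19 mice whose lungs exceeded 100 CPM of the latter, Krt5 fell from 3.19 ± 0.42 to 0.19 and lost its call. Of 7 tested hepatocyte genes 1 was higher in kidney, Ttr, transthyretin (-4.59 ± 0.38), and Alb had medians of 46.4 CPM in lung and 39.2 CPM in kidney with maxima of 533 and 940.1 CPM (-0.14 ± 0.33). Of 3 tested erythroid genes Alas2 was higher in lung (1.71 ± 0.14) and Slc4a1, which intercalated cells also use, higher in kidney (-2.48 ± 0.19). The 1 tested thymus gene, Cd1d1, was higher in lung (1.14 ± 0.12), the 1 tested adrenal gene, Star, was under the fold threshold (0.42 ± 0.07), and no pancreas gene reached the filter. Their part in the lists above was not tested.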

How the data were processed

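Whole lung and kidney RNA from 47 CC mice, 1 per strain, was sequenced as single-end reads. Per the study's methods and submitters' notes, the authors aligned reads with STAR 2.5.3a to strain-specific pseudo-genomes (mm9) and quantified genes of a RefSeq pseudo-transcriptome with RSEM from uniquely aligned reads. They deposited, per library and gene, an expected count, a TPM and an FPKM; the FPKM were not used. The counts were rounded (25 were not whole). From the counts of 24423 genes, genes above 1 CPM in 30% or more of the 94 libraries were kept, TMM factors were computed (edgeR 4.0.16), and limma 3.58.1 voom was fitted in R 4.3.3 with mouse as a block. CPM use TMM-scaled library sizes. Lung and kidney of a strain come from 1 animal per the study's methods, and the labels give strain and organ. The deviations of same-mouse libraries from their organ means correlated with a median r of 0.198 (above 0.1 in 44 of 47 mice), against -0.005 between different mice, and 36 of 47 lungs correlated best with their own kidney. No 2 libraries held identical values. The study's methods fit sequencing batch as a covariate, but which batch a library belongs to is not given in the sources used here, so batch was not modelled.

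A call needed q of at most 0.1 and a log2 fold change of 1 or more in either direction. The members and lists were chosen with earlier results of these data known. Genes were named by a rule: the 4 markers; in each list the 3 largest called changes in the main direction and up to 3 in the other; any member that defines a cell type; in each family the 2 largest per direction; and outside these the 5 largest per direction with at least 10 CPM and no overlap. Alternatives were DESeq2 1.42.0 size factors and Wald test, edgeR, total counts, TPM with a pseudocount of 1, other filters and thresholds, no block, all 3 tissues, thinning, and, chosen after seeing the data, leaving out mice or the genes Rn45s and Lars2. The main limma-voom fit was tested on simulated counts in which a small part of the genes changed, in both directions. The alternatives were not tested in this way. Because composition hardly differed between the simulated organs, the simulation cannot test the choice of scaling. Promoters are from RefSeq, with 18096 of the 24423 genes matched. Results of some genes are not reported here.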

Additional observations from a re-analysis of the deposited data

How the results depend on the processing

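Precision was limited by depth for low genes and for genes with several transcripts. Of 177 genes named as markers or by the size of their change, no value reversed under any alternative that tested them. In all, 2938 values kept their call and 41 lost it, 13 of these on TPM and 12 on TPM without Rn45s and Lars2. Members named only because they define a cell type are outside these counts. On log2(TPM + 1) the calls of Magi2 (-0.77), Cgn (0.83) and Cxcl10 (-0.82) were among those lost. Without CC015, Ehd3 (-0.96) and Rsad2 (-0.97) lost their calls. Pairing by mouse mattered little, since without the replicate block 3323 genes were called in lung and 2676 in kidney. None of the 177 genes lost its call and no list median its direction. Requiring a log2 fold change of 2 left 1944 lung and 1405 kidney calls. On log2(TPM + 1) there were 1630 kidney calls, and 1663 without the 2 genes, with 70.7% and 71.2% of the calls in lung. With the low-count filter at 50% of libraries, which tests fewer genes, NK calls fell from 10 to 5, neutrophil from 8 to 5, skeletal muscle from 5 to 2 and mast cell from 4 to 1.

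The list medians, taken relative to all genes, kept their direction except for the erythroid, hepatocyte and peptide hormone lists. On log2(TPM + 1) they were 4.13 for alveolar type 1, 5.53 for airway secretory, 3.74 for ciliated, -4.97 for proximal tubule identity, -3.99 for thick limb, -3.84 for collecting duct, 2.73 for lung and -3.74 for kidney factors, 1.82 for endothelial, 1.996 for lymphatic, 2.04 for fibroblast, 4.61 for cardiac, 2.54 for B cell, 1.91 for T cell, 2.39 for NK, 2.45 for neutrophil, 1.29 for mast cell and -6.95 for solute carrier lists, with erythroid reversed at -0.060. With only members of at least 10 CPM they were 8.09 for alveolar type 2, 5.91 for type 1, -8.59 for proximal tubule identity, -8.46 for thick limb, -7.06 for kidney factors, 4.83 for lymphatic, 4.87 for T cell, 2.19 for mast cell, 0.34 for sodium pump and 2.97 for airway ion transport genes, with erythroid reversed at -2.52. Without a low-count filter they were -6.57 for thick limb, -3.69 for collecting duct, -5.68 for kidney factors, 2.14 for endothelial, 2.05 for lymphatic, 3.10 for neutrophil and 2.30 for mast cell genes, with peptide hormones (0.032) and hepatocyte (0.088) reversed. With only members of 1 listed transcript they were 8.16 for alveolar type 2, 5.91 for type 1, -8.74 for proximal tubule identity, 2.12 for lymphatic and -2.60 for peptide hormones, with erythroid reversed at -1.01. With all 3 tissues in the fit proximal tubule identity was -8.25 and erythroid reversed at -0.30. In the 21 mice with low Rn45s and Lars2 hepatocyte reversed at 0.22, and without the 19 mice with over 100 CPM of squamous and thyroid genes in lung skeletal muscle was 1.76. The cause of these shifts was not tested.

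Of the correlations across mice, those on summed TPM missed the threshold for leukocyte (0.19), B cell (0.16), T cell (0.25), MHC class II (0.33), interferon-induced (0.40) and fibroblast genes (0.11) and passed it for neutrophil genes (0.41). Without the 2 genes in the TPM only fibroblast genes (0.085) missed it, and neutrophil genes passed (0.56). As mean z-scores, macrophage genes reversed to 0.36, neutrophil genes passed (0.64) and fibroblast genes missed (0.25). Within the 21 mice leukocyte (0.45), MHC class II (0.39) and fibroblast genes (0.36) missed it, and within the other 26 mice B cell (0.22) and fibroblast genes (0.28) missed it and neutrophil genes passed (0.50). Without CC016, CC020 and CC040 fibroblast genes missed it (0.31). Alternatives that leave out mice or the 2 genes, split the mice or keep members of 1 transcript were chosen after seeing the data.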

Other observations

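Of the kidney genes with a kidney median of at least 200 CPM, a log2 difference of 8 or more and no overlap, 51 in all, the lung median was 0.0380% to 0.330% of the kidney median (median 0.135%). Their summed level in lung ran from 16.9 CPM in CC037 to 488 CPM in CC015, with a median of 81.5 CPM, against 67665 CPM in kidney. The 9 lung genes chosen in the same way, among them Scgb1a1, Sftpc and Lamp3, had kidney medians of 0.0899% to 0.324% of their lung medians (median 0.117%). Their summed level in kidney ran from 4.73 CPM in CC062 to 202 CPM in CC004, with a median of 25.3 CPM, against 17843 CPM in lung. The log2 fold change exceeded 10 in size for 11 kidney genes and 0 lung genes, the largest being 10.5 and 9.94. These genes were chosen by their values in the same libraries, and the required log2 difference itself limits the shares, which are a description of these genes and say nothing of other genes.

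Repetin (Rptn), an epidermal gene picked out after its values were seen, was the single call to change direction under any alternative. Its level in lung ran from 0.373 to 617 CPM with a median of 4.83 CPM, and its kidney median was 8.81 CPM. Over all 47 mice its log2 fold change was 2.56 ± 0.42, and over the 28 mice with at most 100 CPM of squamous and thyroid genes in lung it was -1.15 ± 0.27 (q = 0.00023 in limma-voom).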
